A study of Mus musculus with 24 samples.

Results

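Adipogenic transcription factors are the DNA-binding proteins that turn a fibroblast-like preadipocyte into a fat cell and keep it one. The 8 genes described here were Cebpb and Cebpd, Pparg and Cebpa, Klf15, and Ebf1, Ebf2 and Zfp423, chosen by name for these known roles. They were found in the count table by gene symbol through the GENCODE M21 annotation of mouse genome GRCm38, so that 8 of 54232 genes in the table are members, and all 8 passed the filter on low counts that left 26116 genes for testing. The libraries came from adipose tissue of male C57BL6 mice labelled 10 weeks old, 6 mice in each of 4 groups. Control mice had a sham operation and an intraperitoneal lentivirus carrying GFP. PNx mice had a partial nephrectomy, a surgical model of renal failure, with the same GFP virus. PNx+NaKtide mice had the nephrectomy and a virus carrying NaKtide, a peptide made to block signalling of the Na,K-ATPase through Src, linked to GFP. NaKtide mice had the sham operation and the NaKtide virus. In all 4 groups the transgene was driven by the adiponectin promoter, whose own gene Adipoq is active in mature fat cells, and all groups received a virus. The methods of the study describe the tissue as visceral fat.

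In textbook adipogenesis a hormonal stimulus first induces CEBPB and CEBPD, which then switch on PPARG and CEBPA. These last factors hold each other on and activate the genes of lipid storage, such as Fabp4, Plin1 and Adipoq. EBF1, EBF2 and ZFP423 act in committed precursors, EBF2 also in brown and beige fat, and KLF15 works beside the core pair in lipid and glucose handling.

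Each library held between 679250 and 2979505 counts, so 3 counts corresponded to 0.738 to 5.90 CPM (counts scaled to a common library size by the TMM method of edgeR). A count of 0 allows a level up to that floor, for counting error only. The libraries did not resemble each other in their content of tissue marker genes. In the Control libraries, labelled adipose tissue, the summed level of 10 adipocyte marker genes ranged from 240 to 747 CPM. That of 13 epididymis marker genes ranged from 971 to 2273 CPM. The lists hold different genes, so their sums do not give shares of tissue. The part of the way reads were counted in these sums was not tested. Replicate 6 of PNx and replicate 6 of NaKtide stood apart, with 5579 and 3433 CPM of adipocyte markers against 95.7 to 925 CPM in the other 22 libraries, and 104 and 18.1 CPM of epididymis markers. They also had 1627 and 244 CPM of 5 erythrocyte markers, against 4.85 to 119 CPM elsewhere, and 588 and 499.8 CPM of 7 endothelium markers, against 32.3 to 134 CPM elsewhere. NaKtide replicate 6 also held 5751 CPM of 11 skeletal muscle markers, against 11.3 to 113 CPM elsewhere. PNx replicates 1, 2 and 3 stood apart in another way, with 1271, 1172 and 1499 CPM of 13 testis germ cell markers, against 162 to 699 CPM in Control, and 2.96, 220 and 591 CPM of epididymis markers. PNx+NaKtide replicates 2, 3 and 4 held 756, 993 and 1036 CPM of the testis germ cell markers, also above the Control range, as were PNx replicate 6 (752 CPM) and NaKtide replicate 3 (797 CPM). The part of these contents in the values of the members was not tested. In bulk tissue, fewer cells of a type and less RNA per cell cannot be told apart.

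Promoter windows are shown for 4 members that behaved differently across these libraries: Pparg, Cebpa and Ebf1, whose counts lay mostly in the replicate 6 libraries of PNx and NaKtide, and Cebpb, whose counts did not. Each window runs from 250 bases before to 50 bases after a RefSeq start on GRCm38.p6, all 4 on the plus strand. Capitals mark matches, on either strand, to 4 motifs: TTGCNNAA, a C/EBP-like sequence; CCCNNGGG, an EBF-like sequence; AGGTCA, the nuclear receptor core; and TATAAA, the TATA box. No capitals overlap between motifs in these windows. Of the 8 members, 6 had at least 1 window, 10 windows in all. Cebpd and Ebf2 had none.
Cebpb, chr2:167688665-167688964: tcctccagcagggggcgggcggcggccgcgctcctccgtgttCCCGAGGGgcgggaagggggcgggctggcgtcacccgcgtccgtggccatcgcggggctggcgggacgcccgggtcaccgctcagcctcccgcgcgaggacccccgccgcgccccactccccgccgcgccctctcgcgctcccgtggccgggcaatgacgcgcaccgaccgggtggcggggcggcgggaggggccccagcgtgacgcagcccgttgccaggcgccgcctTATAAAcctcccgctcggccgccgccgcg
Cebpa, chr7:35119043-35119342: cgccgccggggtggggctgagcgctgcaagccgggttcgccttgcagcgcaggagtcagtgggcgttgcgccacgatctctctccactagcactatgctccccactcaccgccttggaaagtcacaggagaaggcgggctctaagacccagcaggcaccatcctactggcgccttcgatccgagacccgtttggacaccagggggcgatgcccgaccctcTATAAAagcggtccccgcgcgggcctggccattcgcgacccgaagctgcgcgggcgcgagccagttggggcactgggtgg
Pparg, most downstream of 3 starts, chr6:115421816-115422115: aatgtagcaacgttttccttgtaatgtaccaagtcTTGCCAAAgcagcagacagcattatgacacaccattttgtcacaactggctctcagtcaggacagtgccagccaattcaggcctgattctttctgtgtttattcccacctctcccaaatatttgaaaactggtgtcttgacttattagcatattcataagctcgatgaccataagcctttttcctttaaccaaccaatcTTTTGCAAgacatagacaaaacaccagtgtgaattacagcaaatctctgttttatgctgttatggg
Ebf1, the upstream start, chr11:44617850-44618149: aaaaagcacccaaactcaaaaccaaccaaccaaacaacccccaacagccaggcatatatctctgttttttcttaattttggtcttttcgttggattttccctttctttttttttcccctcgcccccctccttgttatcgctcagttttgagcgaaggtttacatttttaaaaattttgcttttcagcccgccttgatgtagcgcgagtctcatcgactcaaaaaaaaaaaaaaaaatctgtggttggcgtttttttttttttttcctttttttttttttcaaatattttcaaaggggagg

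The Cebpa window held 1 TATAAA match and the Cebpb window held 1 TATAAA and 1 CCCNNGGG match. The downstream Pparg window held 2 TTGCNNAA matches, while the Ebf1 window held no match to any of the 4 motifs. Among 32851 RefSeq windows of the same length, 10.8% held TTGCNNAA, 13.7% CCCNNGGG, 16.3% AGGTCA and 13.6% TATAAA. The Cebpb window was 80.7% G or C and the Cebpa window 67.3%, against 40.3% for this Pparg window and 36.7% for this Ebf1 window. The median over all windows was 52.7%. These figures depend on the start chosen: the other 2 Pparg windows were 80.3% and 62.7% G or C, with 1 AGGTCA match each and no TTGCNNAA match, and the other Ebf1 window was 53% G or C with no match. The matches describe letters only.

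Per unit of transcript length, the early C/EBP genes had the highest median levels of the members in Control. Genes on the opposite strand overlap 20.7% of the exon bases of Cebpb, 15% of Cebpd, 6.12% of Ebf2 and 1.9% of Cebpa. The part of reads from those genes in this order was not tested. On the scale of the deposited FPKM (counts per length of transcript and depth of library), the median level in Control was 10.7 for Cebpb, 10.2 for Cebpd and 6.00 for Cebpa. The remaining medians were 1.29 for Klf15, 0.691 for Zfp423, 0.549 for Pparg, 0.245 for Ebf1 and 0.040 for Ebf2. Neighbours in this order overlapped in their ranges over 6 libraries, except at 2 steps. Every Cebpa level (4.17 to 9.75 FPKM) was above every Klf15 level (0.453 to 1.70 FPKM), and every Ebf1 level (0.212 to 0.394 FPKM) was above every Ebf2 level (0 to 0.171 FPKM). In PNx the median Ebf2 level was 1.33 FPKM, above the medians of Pparg (0.883), Zfp423 (0.817), Klf15 (0.617) and Ebf1 (0.114), although the ranges overlapped.

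Over the 24 libraries the members were covered by few counts. Cebpd had 1794 counts, Cebpa 1452, Cebpb 676, Pparg 233, Zfp423 219, Ebf1 215, Klf15 205 and Ebf2 167. Pparg had no count in 6 libraries, Ebf2 in 5 and Ebf1 in 2.

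**Figure D1:**
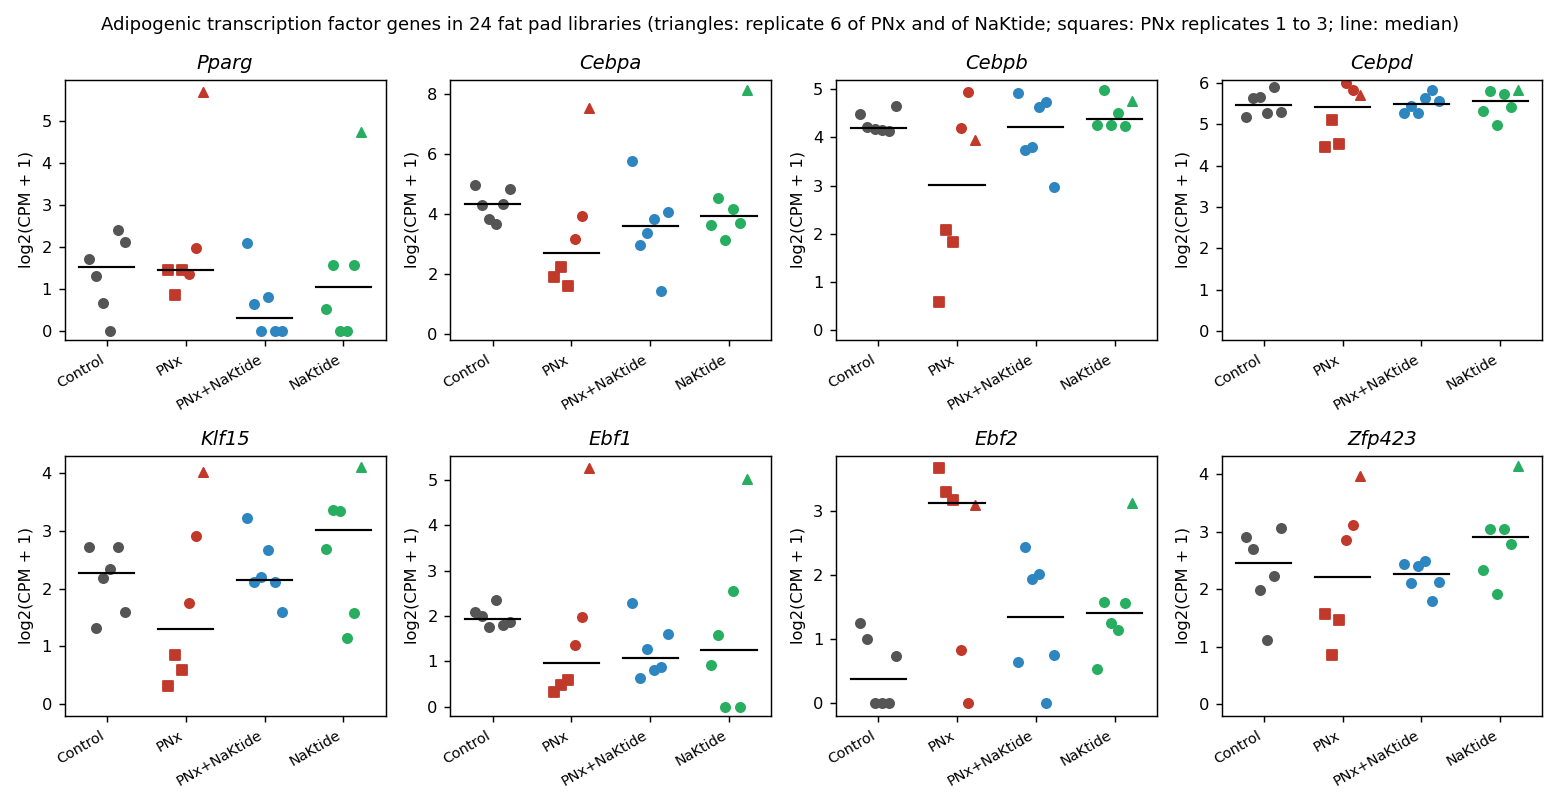
Level of each of the 8 genes as log2(CPM + 1) on the vertical axis, by group on the horizontal axis, with 1 point per library, 6 libraries per group and a black line at the median; triangles are replicate 6 of PNx and of NaKtide, and squares are PNx replicates 1 to 3. Pparg, Cebpa and Ebf1 have their highest PNx and NaKtide values in the triangles, Ebf2 has its 3 highest values in the squares, and Cebpd lies between 20.9 and 62.8 CPM throughout.

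The comparison of PNx with Control asked how renal failure altered these genes in fat. None of the 8 members passed a Benjamini-Hochberg adjusted p under 0.1 in edgeR's quasi-likelihood test, where 0.0766% of all tested genes passed. At an unadjusted p under 0.05, 1 of 8 members passed, Ebf2, against 25.4% of all genes, 18.5% higher and 6.88% lower. The fitted log2 fold change was above 0 for 6 members and below 0 for 2 (Cebpb and Cebpd), with a median of 0.55 over members and 0.36 over all genes tested. Scaling moved this background: the median over all genes was 0.76 with DESeq2 size factors and 0.70 with library totals.

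Cebpb, an early bZIP factor of the programme that also responds to inflammation and stress, measured 16.7, 17.3 and 24.1 CPM (lowest, median and highest) in Control. In PNx the values were 0.493, 3.23 and 2.52 CPM in replicates 1 to 3 and 17.3, 29.7 and 14.3 CPM in replicates 4 to 6. The first 3 lay below every Control library, and of the other 3, replicate 4 lay inside the Control range, replicate 5 above it and replicate 6 below it. The fold change was -0.78 ± 0.56 (log2 ± SE, edgeR adjusted p = 0.351). With PNx replicates 1 to 3 left out it was 0.065, so the direction rested on them. Without PNx replicate 5 it was -1.37, with an edgeR adjusted p of 0.0958, in a fit where 23.2% of all genes were called. PNx+NaKtide ranged from 6.79 to 29.3 CPM (median 18.3) and NaKtide from 17.7 to 30.5 CPM (median 19.97), both overlapping Control.

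Cebpd, induced beside Cebpb, was the steadiest member. Its group means were 44.4 ± 9.19 CPM in Control, 41.1 ± 18.0 in PNx, 44.7 ± 6.92 in PNx+NaKtide and 45.6 ± 10.0 in NaKtide (SD, n = 6 each). The fold change for PNx against Control was -0.12 ± 0.31 (edgeR adjusted p = 0.822), and its sign depended on the scaling, since DESeq2 size factors gave 0.21. PNx replicates 1 to 3 held 20.9, 33.5 and 22.0 CPM, below the lowest Control value of 34.8 CPM. On the FPKM scale, which carries the authors' own size factors, the same libraries measured 8.97, 13.2 and 8.52, within the Control range of 7.92 to 13.1 except for replicate 2, just above it.

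Pparg encodes the nuclear receptor that is required for fat cell formation. In Control it measured 0, 1.91 and 4.32 CPM (lowest, median and highest). PNx replicates 1 to 5 ranged from 0.808 to 2.97 CPM, inside the Control range, and PNx replicate 6 measured 51.3 CPM from 136 counts. NaKtide ranged from 0 to 1.99 CPM in replicates 1 to 5 and measured 25.9 CPM in replicate 6. PNx+NaKtide measured 0, 0.279 and 3.32 CPM, with 3 libraries at 0. The 2 high libraries held 176 of the 233 Pparg counts (75.5%) and 8.38% of all counts in the table. The fold change for PNx against Control was 2.30 ± 1.14 (log2 ± SE, edgeR adjusted p = 0.203). Without PNx replicate 6 it was -0.19, with the opposite sign.

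Cebpa, the bZIP factor that sustains Pparg and the insulin-sensitive state of the mature fat cell, followed a similar pattern at a higher level. Control measured 11.7, 18.8 and 30.2 CPM. PNx measured 2.71, 3.63, 2.02, 7.85, 14.3 and 184 CPM in replicates 1 to 6. Thus 4 of the 6 PNx libraries lay below every Control library, 1 inside the Control range and 1 above it. NaKtide measured 7.68, 14.4 and 279.9 CPM, the last in replicate 6, and PNx+NaKtide 1.66, 11.2 and 53.7 CPM. The fitted fold change was 0.84 ± 1.02 (edgeR adjusted p = 0.597). It became -1.76 without PNx replicate 6, and -1.77 with an adjusted p of 0.0716 in edgeR when NaKtide replicate 6 was also left out, which is past the threshold in the opposite direction, in a fit where 21.8% of all genes were called. The 2 replicate 6 libraries held 63.4% of all Cebpa counts.

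Klf15, a zinc finger factor that rises late in adipogenesis and regulates glucose transporter and amino acid metabolism genes, measured 1.501, 3.82 and 5.57 CPM in Control. In PNx replicates 1 to 3 it measured 0.246, 0.808 and 0.505 CPM, from 1, 2 and 2 counts, all below the Control range. The highest values of their groups were 15.1 CPM for PNx replicate 6 and 16.2 CPM for NaKtide replicate 6. The fold change was 0.18 ± 0.71 (edgeR adjusted p = 0.887) and became -0.98 without PNx replicate 6.

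Ebf1, an early B-cell factor family member active in adipocyte precursors and in mature fat cells, measured 2.37, 2.84 and 4.08 CPM in Control. PNx replicates 1 to 3 measured 0.246, 0.404 and 0.505 CPM, from 1, 1 and 2 counts, and replicate 6 measured 37.4 CPM from 99 counts. In NaKtide, replicates 3 and 5 had no count and replicate 6 measured 31.7 CPM, while PNx+NaKtide ranged from 0.557 to 3.87 CPM. The 2 replicate 6 libraries held 68.8% of all Ebf1 counts. The fold change for PNx against Control was 1.26 ± 1.02 (edgeR adjusted p = 0.413) and became -1.54 without PNx replicate 6.

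Zfp423, a zinc finger factor that commits precursors to white fat and restrains the thermogenic programme, measured 1.17, 4.603 and 7.36 CPM in Control and 0.808, 4.13 and 14.7 CPM in PNx. PNx+NaKtide kept within 2.50 and 4.61 CPM, and NaKtide ranged from 2.79 to 16.8 CPM. Here too the top values of PNx and NaKtide were in replicate 6. All 4 groups overlapped, and the fold change for PNx was 0.26 ± 0.57 (edgeR adjusted p = 0.780), or -0.38 without PNx replicate 6.

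Ebf2, the early B-cell factor that marks committed brown and beige precursors, behaved differently from the other members. Control measured 1.39, 1.00, 0, 0, 0 and 0.669 CPM in replicates 1 to 6, from 6 counts in all. PNx measured 11.8, 8.88, 8.07, 0.785, 0 and 7.55 CPM. Thus 4 PNx libraries were above every Control library and 2 lay inside the Control range. PNx+NaKtide measured 0, 1.77 and 4.46 CPM (lowest, median and highest) and NaKtide 0.450, 1.68 and 7.76 CPM. The fold change for PNx against Control was 3.40 ± 0.92 (log2 ± SE), with an edgeR adjusted p of 0.128 that ranged from 3.8e-05 to 0.439 over 36 alternatives, 8 of which called it. It passed the threshold when PNx replicate 4, 5 or 6 was left out (edgeR adjusted p of 0.0369, 0.0579 and 0.0747), in fits where 33.2%, 23.2% and 14.8% of all genes were called. It was 3.35 without PNx replicate 6 and 2.20 (edgeR adjusted p = 0.439) without PNx replicates 1 to 3, and was above 0 under every alternative. PNx replicates 1 to 3 held 102 of the 167 Ebf2 counts (61.1%) and 19.1% of all counts. These are the libraries of highest testis germ cell marker sums. PNx+NaKtide replicates 2, 3 and 4, whose sums were also above the Control range, had 4.46, 2.86 and 3.07 CPM of Ebf2, above every Control library. PNx replicate 6, with 752 CPM of these markers, had 7.55 CPM of Ebf2. Other libraries went another way. NaKtide replicate 3, with 797 CPM of these markers, had 1.40 CPM of Ebf2, beside the highest Control value of 1.39 CPM. NaKtide replicate 6, with 664 CPM and so inside the Control range, had 7.76 CPM of Ebf2. Of 8 brown fat markers, PNx replicates 1 to 3 held 37.5, 35.9 and 21.7 CPM and NaKtide replicate 6 held 31.0 CPM. Control held 1.17 to 9.51 CPM, and PNx replicate 6 lay inside that range at 6.04 CPM. In PNx replicates 1 to 3 most of this was Dio2 (36.0, 34.3 and 19.9 CPM), while Cox7a1 was at most 0.808 CPM. Preadipocyte markers summed to 121, 132 and 99.2 CPM there and 315 CPM in PNx replicate 6, against 41.4 to 106 CPM in Control. The part of these contents in the Ebf2 values was not tested.

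**Figure D2:**
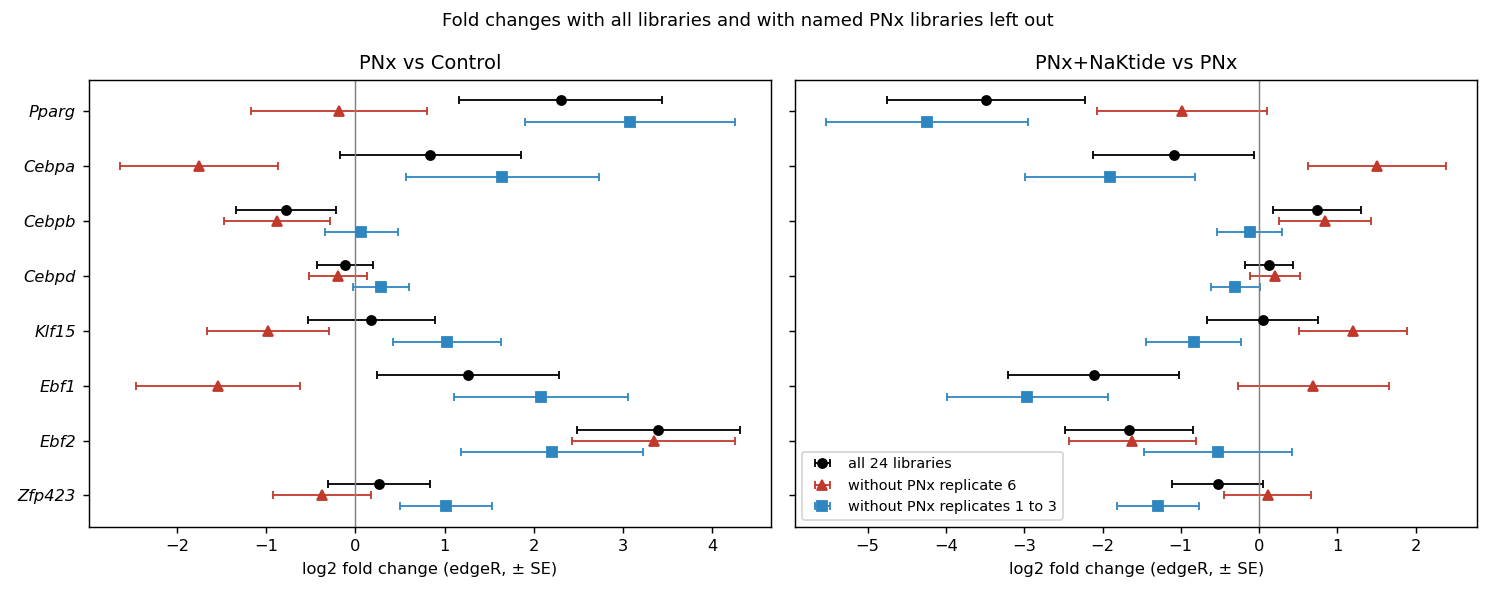
Fitted log2 fold change of each member (horizontal axis, bars are ± 1 SE of the edgeR fit) for PNx against Control at left and PNx+NaKtide against PNx at right, with all 24 libraries (circles), without PNx replicate 6 (triangles) and without PNx replicates 1 to 3 (squares). At left the circles of Pparg, Cebpa, Klf15, Ebf1 and Zfp423 are to the right of 0 and their triangles to the left, whereas all 3 symbols of Ebf2 are to the right, at 3.40, 3.35 and 2.20.

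The make-up of the member counts differed between libraries in the same way. Cebpd supplied between 26.7% and 64.3% of the summed counts of the 8 genes in 22 libraries, but 13.7% in PNx replicate 6 and 12.1% in NaKtide replicate 6. There Cebpa supplied 49.0% and 60.9%, and Pparg 13.7% and 5.63%. Ebf2 supplied 29.4%, 17.1% and 20.6% in PNx replicates 1 to 3 and at most 6.06% in any other library. The summed level of the 8 genes was 376 and 460 CPM in the 2 replicate 6 libraries and 39.1 to 141 CPM in the others.

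**Figure D3:**
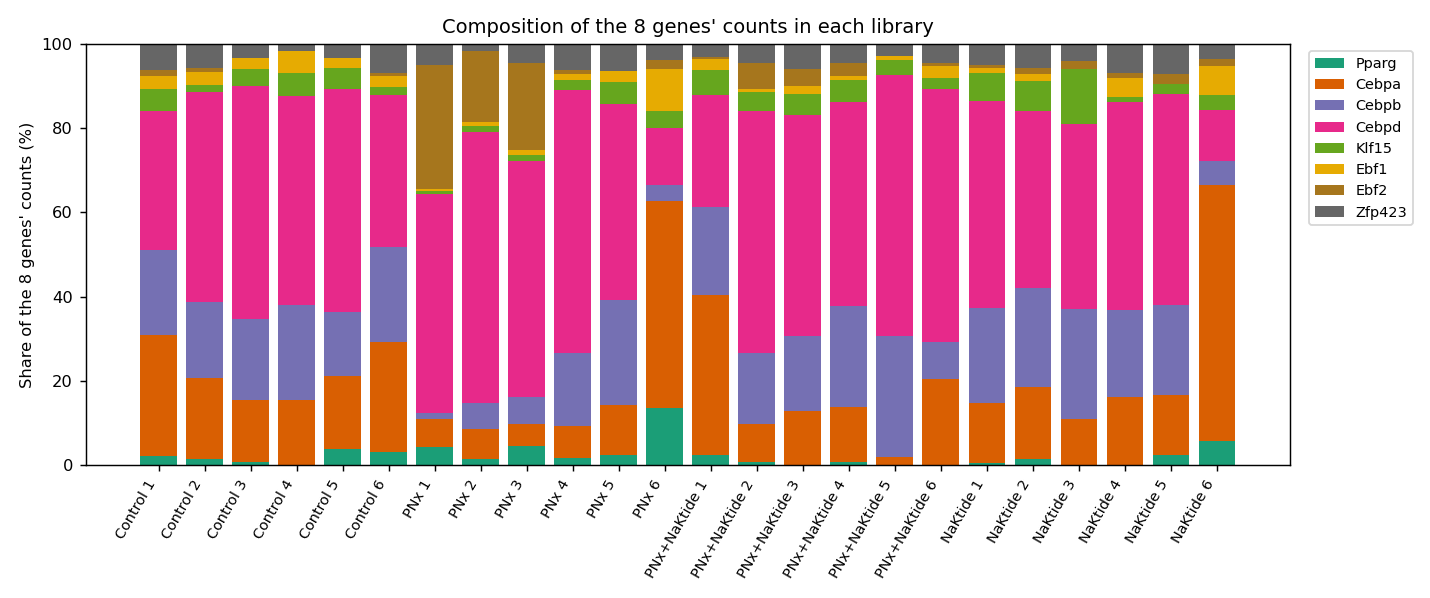
Share of the summed counts of the 8 genes held by each gene (vertical axis, percent) in each of 24 libraries (horizontal axis, group and replicate number), stacked to 100%. The large Cebpa segments of PNx 6 (49.0%) and NaKtide 6 (60.9%) and the Ebf2 segments of PNx 1 to 3 (17.1% to 29.4%) stand out from the other libraries, where Cebpd held 26.7% to 64.3%; in PNx+NaKtide 1, at the low end of that range, Cebpa held 38.0%.

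Adipoq, whose promoter drove the transgene, was high both where Pparg and Cebpa were high and where Cebpa was low. Its level was 345 CPM for PNx replicate 6 and 166 CPM for NaKtide replicate 6, where Pparg and Cebpa were also high. It also reached 95.1, 141 and 88.6 CPM in PNx replicates 1 to 3, above the highest Control value of 56.2 CPM, where Cebpa, Cebpb, Klf15 and Ebf1 were below every Control library in CPM and in FPKM. These 5 libraries were also the 5 of highest Ebf2. Its fold change for PNx against Control was 1.89 ± 0.79 (edgeR adjusted p = 0.159).

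PNx+NaKtide was compared with PNx to ask whether the transgene altered these genes in renal failure. No member passed the adjusted threshold, as for all genes (0%), and 1 of 8, Pparg, passed an unadjusted p under 0.05, against 12.7% of all genes, 4.07% higher and 8.6% lower. The fitted fold change was below 0 for 5 members and above 0 for Cebpb, Cebpd and Klf15, with a median of -0.81 over members and -0.37 over all genes. Pparg had -3.49 ± 1.26 (edgeR adjusted p = 0.357), Ebf1 -2.11 ± 1.09 (edgeR adjusted p = 0.408), Ebf2 -1.66 ± 0.81 (edgeR adjusted p = 0.395) and Cebpa -1.09 ± 1.03 (edgeR adjusted p = 0.574). The remaining values were -0.53 ± 0.58 for Zfp423, 0.74 ± 0.56 for Cebpb, 0.13 ± 0.31 for Cebpd and 0.047 ± 0.71 for Klf15. Leaving out PNx replicate 6 reduced the size of the Pparg change to -0.99 and turned Cebpa to 1.51, Ebf1 to 0.69 and Zfp423 to 0.11. Leaving out PNx replicates 1 to 3 turned Cebpb to -0.12 and Klf15 to -0.83 and left Ebf2 at -0.52. This comparison and the one of PNx with Control share the 6 PNx libraries, so opposite signs of the members in them are not independent.

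NaKtide was compared with Control for the transgene in sham mice. No member passed the adjusted threshold (0% of all genes), and 1 of 8, Ebf2, passed an unadjusted p under 0.05, against 3.95% of all genes. Ebf2 had 2.08 ± 0.96 (edgeR adjusted p = 1). All 8 fitted fold changes were above 0, with a median of 1.09 against 0 over all genes. Without NaKtide replicate 6, Pparg became -1.26, Cebpa -0.52, Ebf1 -0.97 and Cebpd -0.032, so that 4 of 8 were below 0.

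PNx+NaKtide compared with NaKtide isolated the surgery among mice that carried the peptide. No member passed at the adjusted threshold (0% of all genes) or at an unadjusted p under 0.05 (4.09% of all genes). All 8 fitted fold changes were below 0, with a median of -0.87 against 0.040 over all genes, and Pparg had the lowest value, -2.56 ± 1.28 (edgeR adjusted p = 1). Without NaKtide replicate 6, the values of Pparg, Cebpa, Ebf1, Ebf2 and Cebpd were above 0, between 0.039 and 0.55.

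The interaction compared the effect of the surgery with and without the peptide. No member passed at the adjusted threshold (0% of all genes), and 3 of 8, Pparg, Ebf1 and Ebf2, passed an unadjusted p under 0.05, against 9.27% of all genes. Their values were -4.86 ± 1.72, -3.29 ± 1.51 and -3.75 ± 1.26 (log2 ± SE), with edgeR adjusted p of 0.491, 0.523 and 0.488. The median was -1.93 over members and -0.35 over all genes. Without both replicate 6 libraries, Pparg was at 0.28 and Ebf1 at 1.69, on the other side of 0. Ebf2 stayed below 0 under all 35 alternatives, between -4.65 and -0.995. Of these, 1 called it, voom with sample weights, where 25.2% of all genes were called.

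For 4 members another annotated gene lies on the opposite strand and shares exon bases, and the strand setting used in counting was not given in the sources used here. Without strand, reads from a gene and its antisense partner cannot be told apart. Cebpa (chr7:35119293-35121928, plus strand) shares 51 bases of its coding sequence with the antisense transcript gene Gm45091. Cebpb (chr2:167688915-167690418, plus) shares 312 coding bases with Tmem189, Cebpd (chr16:15887286-15891031, plus) 562 non-coding exon bases with Spidr, and Ebf2 (chr14:67233292-67430918, plus) 424 exon bases, 29 of them coding, with the antisense gene Gm10860. Pparg (chr6:115360951-115490399, plus), Klf15 (chr6:90462576-90475238, plus), Ebf1 (chr11:44617317-45008091, plus) and Zfp423 (chr8:87661810-87959595, minus) share none. Such sharing concerns 16.8% of all listed genes, which hold 79.9% of all counts.

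Gm45091 had 2796 counts, more than Cebpa, and its median in Control was 73.4 FPKM against 6.00 FPKM for Cebpa. It had its highest levels where Cebpa had them, with 754 CPM for NaKtide replicate 6, 202 for PNx replicate 6 and 115 for PNx+NaKtide replicate 1, and was lowest in PNx replicates 1 to 3 (1.62 to 2.71 CPM). Tmem189, an enzyme of plasmalogen synthesis with 9489 counts, likewise went with Cebpb: 7.64, 48.9 and 29.5 CPM in PNx replicates 1 to 3 against 241 to 348 CPM in Control. The ratio of Tmem189 to Cebpb counts stayed between 10.2 and 20.6 over the 24 libraries. For Ebf2 the partner was highest in other libraries. Gm10860 peaked at 109.9 CPM (NaKtide replicate 6) and 55.5 CPM (PNx replicate 6), and in PNx replicates 1 to 3, where Ebf2 was highest, it measured 10.8, 14.5 and 7.32 CPM, close to the Control range of 5.25 to 13.01 CPM. On the FPKM scale the same libraries measured 9.21, 11.4 and 5.63, against 2.62 to 5.80 in Control, so 2 of the 3 lay above that range. Its fold change for PNx against Control was 0.80 ± 0.75 (edgeR adjusted p = 0.477), and that of Spidr, with 122 counts, 0.52 ± 0.55 (edgeR adjusted p = 0.539).

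**Figure D4:**
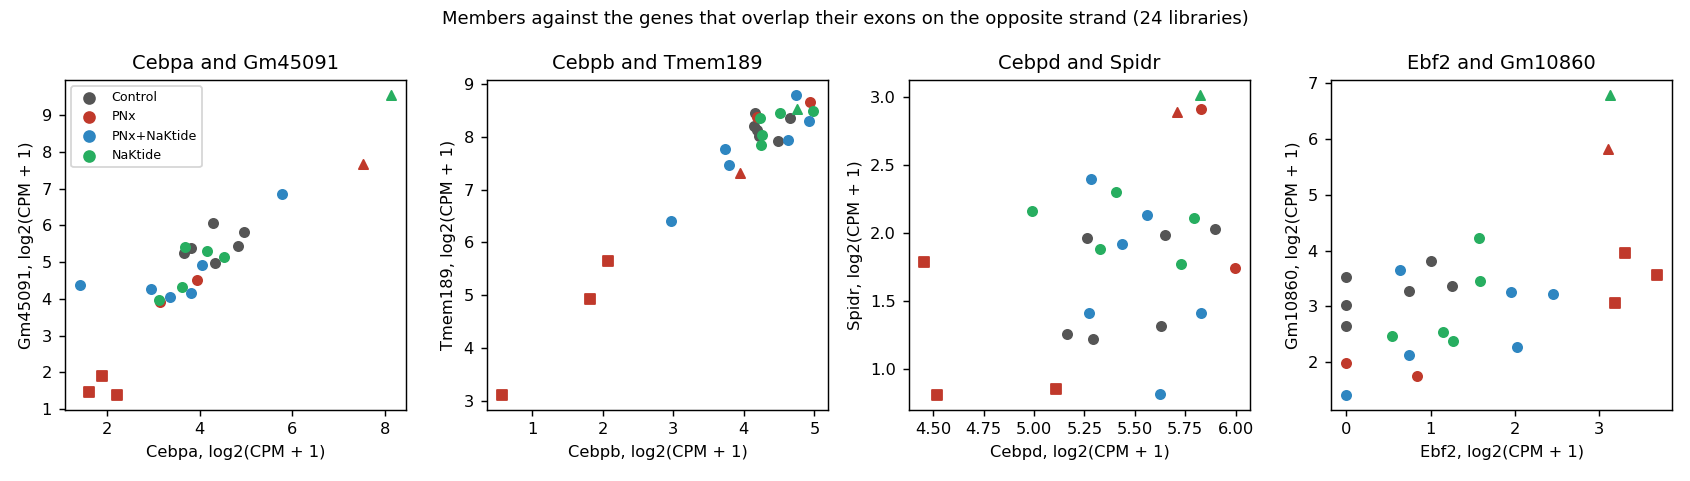
Each member (horizontal axis, log2(CPM + 1)) against the gene that overlaps its exons on the opposite strand (vertical axis, log2(CPM + 1)) in 24 libraries coloured by group, with the same triangles and squares for the libraries that stood apart. Gm45091 and Tmem189 follow Cebpa and Cebpb from the squares upward, while the squares of Ebf2, at 8.07 to 11.8 CPM, lie at 7.32 to 14.5 CPM of Gm10860, far below the triangles.

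The genes most like each member in pattern were sought by Spearman correlation over the 24 libraries among 8381 protein-coding genes with a mean of at least 5 CPM. All points share library depth and tissue content, and the values are a description. For Cebpa they were Thrsp, a lipogenesis regulator (0.95), Ccdc80 (0.93) and Cfd, the adipokine adipsin (0.92). For Ebf1 they were Adgrg3 (0.87), Gngt2 (0.86) and Angptl4, a lipoprotein lipase inhibitor (0.83). For Pparg they were Smoc1 (0.88) and Lama4 (0.80), and for Klf15 Svil (0.93), Tnks1bp1 (0.89) and Anxa2 (0.87). Ebf2 had C2cd3 (0.87), Shoc2 (0.86) and Antxr2 (0.85). Cebpb had its own opposite-strand partner Tmem189 (0.80), Letm1 (0.77) and Kcnj11 (0.75), Cebpd had Pdzd9 (0.90), Lrrc71 (0.89) and Tsr2 (0.89), and Zfp423 had Ginm1 (0.85), Timp3 (0.83) and Tmem245 (0.83). In the 19 libraries that did not stand apart the coefficients of these pairs were between 0.63 and 0.90. Besides Tmem189, opposite-strand genes share exon bases with Pdzd9 (552), Lrrc71 (991) and Tsr2 (1151), all those named for Cebpd. They also do with Ginm1 (157), Timp3 (1733), C2cd3 (349), Shoc2 (97), Gngt2 (234) and Anxa2 (98), and not with the other genes named. The part of such overlap in the coefficients was not tested.

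Around the members, 38 other adipogenic regulators, 19 tested genes of adipogenic signals and inhibitors and 30 target genes of PPARG and the C/EBP factors were examined. No gene of these lists passed the adjusted threshold in any comparison. For PNx against Control at an unadjusted p under 0.05, 11 of 38 regulators were higher and 2 lower (median log2 fold change 0.21), 1 of 19 signal genes was higher and 0 lower (median -0.37), and 7 of 30 target genes were higher and 0 lower (median 1.48), against 18.5% higher and 6.88% lower among all genes. For PNx+NaKtide against PNx, 4 regulators, 1 signal gene and 8 target genes were lower and none higher, with medians of -0.48, -0.20 and -1.51, against 8.6% lower and 4.07% higher among all genes. For the interaction, 7, 1 and 19 were lower and none higher, against 9.27% of all genes in either direction.

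The direction of the target list rested on the replicate 6 libraries. Without both replicate 6 libraries, 13 of the 29 target genes then tested were lower in PNx than in Control and 3 higher (median -1.19), against 10.8% lower and 23.5% higher among all genes. In that fit 5 of 34 regulators were higher and 6 lower, and 0 of 18 signal genes were higher and 4 lower, and 8 target genes, 7 regulators and 4 signal genes passed the adjusted threshold of edgeR, as 21.8% of all genes did. For PNx+NaKtide against PNx, 8 target genes were then higher and 0 lower (median 0.72), against 7.78% higher and 12% lower among all genes. For the interaction 6 target genes were higher and 1 lower (median 1.31), against 4.86% higher and 4.34% lower among all genes. None of these target genes passed the adjusted threshold, as for all genes (0%). Without PNx replicates 1 to 3, 17 of 30 target genes were higher in PNx than in Control and 0 lower (median 2.00). Among all genes 6.26% were higher and 4.83% lower. For PNx+NaKtide against PNx 20 target genes were lower and 0 higher (median -2.02), against 7.19% lower and 8.04% higher among all genes. Again none passed the adjusted threshold, as for all genes (0%).

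Among the regulators of most counts, Rb1, the retinoblastoma gene, had -0.035 ± 0.51 for PNx against Control, the corepressor gene Ncor1 had -0.35 ± 0.31, and Ddit3, which encodes a C/EBP family member that blocks the others, had -0.47 ± 0.32. Among signal genes Bmpr1a, a BMP receptor, had -0.85 ± 0.50, the insulin-like growth factor receptor gene Igf1r -0.56 ± 0.35 and Bmp7 -0.55 ± 0.70. Fabp4, the fatty acid carrier of fat cells, had 1.17 ± 0.89 and ranged in PNx from 27.5 to 1662 CPM, and Plin4, a lipid droplet coat gene, had 1.39 ± 1.09 and ranged from 8.08 to 1241 CPM. Both top values were in PNx replicate 6, and the other 5 PNx libraries reached at most 129.5 CPM of Fabp4 and 67.1 CPM of Plin4. Cfd had 0.75 ± 0.91. Ebf3, a paralogue chosen after its values were seen, had 2.42 ± 0.83 (edgeR adjusted p = 0.136), with 0.594 to 12.1 CPM in PNx and 0 to 2.00 CPM in Control. The paralogue Ebf4 went the other way, with a mean of 0.529 CPM in PNx and 1.62 CPM in Control. Its ranges overlapped, at 0 to 1.57 CPM in PNx and 0.592 to 3.08 CPM in Control.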

How the data were processed

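RNA from adipose tissue of 24 mice, 6 in each of 4 groups given by the sample labels, was sequenced from stranded mRNA libraries as paired reads. Per the labels' processing notes and the methods of the study, reads were trimmed with Trimmomatic 0.38 and aligned to GRCm38 with HISAT2 2.1.0, and DESeq2 1.20.0 was used. For the counting step, strand handling and gene annotation are not given in the sources used here. Raw counts and FPKM values were deposited by the authors, and FPKM carry their size factors. Symbols came from GENCODE M21 (99.9% of identifiers matched).

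Genes with a count sum above 10 were tested with edgeR 4.0.16 in R 4.3.3, with TMM scaling, a joint model of all 4 groups and the robust quasi-likelihood F-test, and a Benjamini-Hochberg adjusted p under 0.1 counted as called. The common dispersion was 0.509. CPM are counts scaled to a common library size with the TMM factors. A standard error is the size of the log2 fold change over the root of its F value. The p-values measure the spread between these libraries, 1 per mouse. The floors cover counting error only, while the standard errors also cover the spread between libraries. Lowest and highest total counts were 679250 and 2979505.

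Alternatives were DESeq2 size factors, library totals, no filter, filterByExpr, DESeq2 1.42.0, voom with sample weights (limma 3.58.1), limma on log2(FPKM + 1) and log2(FPKM + 0.1), a fit on the compared groups, a replicate block, a stricter adjusted p of 0.05, and each library left out in turn. Named genes are the 8 members, their opposite-strand partners, the 3 most similar protein-coding genes of at least 5 mean CPM for members with at least 100 counts, the genes that pass the threshold or else the 3 of most counts in each pathway list, and Adipoq. Of these, 1 gene is not reported here. The members, lists and rules were chosen with earlier results of these data known. Promoter windows are from RefSeq (GRCm38.p6). The deposited normalized values were not used.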

Additional observations from a re-analysis of the deposited data

Results flagged for a closer look

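In each group of 6 libraries, a library was singled out when the gap between the highest or lowest value and its neighbour took up an unusually large part of the range of the group (Dixon's criterion at 95%). For independent, normally distributed values this happens in about 1 in 20 groups. That rate does not apply here, as CPM from few counts are not normally distributed and the groups of all genes share the same 24 libraries. A library was singled out in 10 of 32 groups for the 8 members and in 6 of 16 for the opposite-strand partners, which is a description and no test. In PNx, replicate 6 was singled out for Pparg (51.3 CPM), Cebpa (184 CPM), Ebf1 (37.4 CPM), Gm45091 (202 CPM) and Gm10860 (55.5 CPM). In NaKtide, replicate 6 was singled out for Pparg (25.9 CPM), Cebpa (279.9 CPM), Ebf1 (31.7 CPM), Ebf2 (7.76 CPM), Zfp423 (16.8 CPM), Gm45091 (754 CPM), Spidr (7.11 CPM) and Gm10860 (109.9 CPM). In PNx+NaKtide, replicate 1 was singled out for Pparg (3.32 CPM), Cebpa (53.7 CPM) and Gm45091 (115 CPM). No library of Control was. The replicate 6 libraries of PNx and NaKtide also had adipocyte marker sums of 5579 and 3433 CPM, and PNx+NaKtide replicate 1 had 925 CPM, the highest of its group; the part of tissue content in these values was not tested.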

How the results depend on the processing

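For single members, 400 values under alternatives other than leaving out 1 library kept the sign and side of the threshold of the reported value, 84 changed sign and 13 kept the sign and were newly past the threshold, as were 6 of the 84; with 1 library left out these numbers were 916, 40 and 4, with 0 of those that changed sign past it. No member was called in the reported fits. For PNx against Control, 1 member (Ebf2) was called with DESeq2 size factors, with library totals and in DESeq2, where 33.3%, 15.7% and 29.7% of all genes were called, and 2 (Cebpa and Ebf2) without both replicate 6 libraries, where 21.8% were. In voom with sample weights 7 members were called for PNx against Control (63.5% of all genes), 5 for PNx+NaKtide against PNx (42.4%) and 2 for the interaction (25.2%). With single libraries left out the number called for PNx against Control was between 0 and 2, with Ebf2 called without PNx replicate 4, 5 or 6 and Cebpb without PNx replicate 5 (33.2%, 23.2% and 14.8% of all genes called without replicates 4, 5 and 6), and it was 0 in the other comparisons. With DESeq2 size factors, the opposite signs were Cebpd 0.21 for PNx against Control, then Cebpd -0.093 and Klf15 -0.0067 for PNx+NaKtide against PNx, then Cebpd -0.24 for the interaction. With library totals, the opposite signs were Cebpd 0.13 for PNx against Control, then Cebpd -0.057 and Klf15 -0.21 for PNx+NaKtide against PNx, then Cebpd 0.067 for PNx+NaKtide against NaKtide, then Cebpd -0.059 for the interaction. With the filterByExpr filter, the opposite signs were Cebpd 0.058 for PNx against Control, then Cebpd -0.010 and Klf15 -0.053 for PNx+NaKtide against PNx, then Cebpd -0.11 for the interaction. In DESeq2, the opposite signs were Cebpd 0.20 for PNx against Control, then Cebpd -0.091 and Klf15 -0.0062 for PNx+NaKtide against PNx, then Cebpd -0.23 for the interaction. In voom with sample weights, the opposite signs were Cebpa -2.44, Klf15 -2.10, Ebf1 -2.10 and Zfp423 -1.03 for PNx against Control, then Cebpa 1.68, Ebf1 0.99 and Zfp423 1.08 for PNx+NaKtide against PNx, then Pparg -0.40, Cebpa -0.26, Cebpd -0.016 and Ebf1 -1.08 for NaKtide against Control, then Cebpd 0.014 and Ebf2 0.35 for PNx+NaKtide against NaKtide, then Cebpa 1.94, Klf15 1.61, Ebf1 2.07 and Zfp423 0.62 for the interaction. On log2(FPKM + 1), the opposite signs were Cebpa -0.44, Cebpd 0.19 and Klf15 -0.066 for PNx against Control, then Cebpd -0.077 for PNx+NaKtide against PNx, then Cebpd -0.19 for the interaction. On log2(FPKM + 0.1), the opposite signs were Cebpa -0.67, Cebpd 0.20, Klf15 -0.40 and Ebf1 -0.14 for PNx against Control, then Cebpd -0.082 for PNx+NaKtide against PNx, then Pparg -0.081 and Ebf1 -0.20 for NaKtide against Control, then Cebpd -0.20 and Klf15 0.025 for the interaction. With only the groups compared, the opposite signs were Cebpd 0.036 for PNx+NaKtide against NaKtide. Without both replicate 6 libraries, the opposite signs were Pparg -0.19, Cebpa -1.77, Klf15 -0.996, Ebf1 -1.56 and Zfp423 -0.39 for PNx against Control, then Cebpa 1.52, Ebf1 0.71 and Zfp423 0.12 for PNx+NaKtide against PNx, then Pparg -1.26, Cebpa -0.52, Cebpd -0.031 and Ebf1 -0.98 for NaKtide against Control, then Pparg 0.090, Cebpa 0.27, Cebpd 0.037, Ebf1 0.13 and Ebf2 0.57 for PNx+NaKtide against NaKtide, then Pparg 0.28, Cebpa 2.04, Klf15 0.60 and Ebf1 1.69 for the interaction. Without PNx replicates 1 to 3, the opposite signs were Cebpb 0.065 and Cebpd 0.29 for PNx against Control, then Cebpb -0.12, Cebpd -0.30 and Klf15 -0.83 for PNx+NaKtide against PNx, then Cebpb -0.32 and Cebpd -0.32 for the interaction. Whether the replicate numbers paired the libraries was not settled, and the reported fits used no pairing. Same-numbered libraries correlated between -0.592 and 0.712, and best matches with the own number came in 1 to 3 of 6. In no pair of groups were all same-numbered pairs over 0.1. For NaKtide and PNx 5 of 6 were, and for PNx and PNx+NaKtide 4 of 6. With the replicate number as a block 0 members were called. The opposite signs were then Cebpa -0.88, Klf15 -0.32, Ebf1 -0.58 and Zfp423 -0.0097 for PNx against Control. They were Cebpa 0.45 for PNx+NaKtide against PNx, Ebf1 -0.38 for NaKtide against Control and Cebpa 0.32 for the interaction. With single libraries left out, the values that changed sign ranged over Cebpa -0.52 to 1.78, Cebpd -0.032 to 0.13, Ebf1 -0.97 to 1.44 and Pparg -1.26 to 1.73 for NaKtide against Control, then Cebpa -1.76 to 1.09, Cebpd -0.26 to 0.019, Ebf1 -1.54 to 1.52, Klf15 -0.98 to 0.44, Pparg -0.19 to 2.66 and Zfp423 -0.38 to 0.49 for PNx against Control, then Cebpa -2.65 to 0.27, Cebpd -0.12 to 0.039, Ebf1 -2.54 to 0.12, Ebf2 -0.88 to 0.55 and Pparg -3.96 to 0.074 for PNx+NaKtide against NaKtide, then Cebpa -1.94 to 1.51, Cebpd -0.012 to 0.24, Ebf1 -2.62 to 0.69, Klf15 -0.26 to 1.203 and Zfp423 -0.76 to 0.11 for PNx+NaKtide against PNx, then Cebpd -0.048 to 0.22 and Klf15 -1.25 to 0.20 for the interaction; for Pparg, Cebpa, Ebf1, Ebf2 and Zfp423, and for Klf15 in PNx against Control and in the interaction, the library whose loss turned the sign was replicate 6 of PNx or of NaKtide. The cause of these changes was not tested. Pparg, Ebf1 and Ebf2 did not pass the filterByExpr filter and have no value there. The low counts of Pparg, Ebf1, Ebf2, Klf15 and Zfp423, 167 to 233 each, add counting error to their values. The standard errors did not follow the counts alone. For PNx against Control the standard error was 1.02 for Cebpa, with 1452 counts, and 0.57 for Zfp423, with 219. The 2 alternatives that leave out several named libraries were chosen after seeing the data.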
